A study of Mus musculus with 24 samples.

Results

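The hypoxia-inducible factor (HIF) subunits and the enzymes and adaptor that control them by oxygen were read on the arrays by 18 probes of 9 genes, out of 55681 non-control probes with 34797 gene names. The members were the probes whose gene name in the scanner output was *Hif1a*, *Epas1*, *Hif3a*, *Arnt*, *Egln1*, *Egln2*, *Egln3*, *Vhl* or *Hif1an*. HIF is a transcription factor made of an oxygen-labile α subunit (HIF1α from *Hif1a*, HIF2α from *Epas1*, HIF3α from *Hif3a*) and a stable partner, ARNT, which is also called HIF1β. In the presence of oxygen, the prolyl hydroxylases PHD2 (*Egln1*), PHD1 (*Egln2*) and PHD3 (*Egln3*) mark the α subunits for binding by VHL, the recognition part of a ubiquitin ligase, and the asparaginyl hydroxylase FIH (*Hif1an*) limits their contact with coactivators. The main oxygen control acts on the α proteins, which these arrays do not measure, while *Egln1* and *Egln3* are textbook examples of regulators whose own transcripts respond to HIF in many cells.

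Total RNA came from the *M. gastrocnemius*, a calf muscle, of male C57BL/6JOlaHsd mice that breathed normobaric air of 20.9% oxygen (Norm, n = 12) or 12% oxygen (Hypox, n = 12) for 6 h. All mice had arrived at 10 weeks of age, had eaten a low-fat diet (10% of energy from fat) for 3 weeks and a high-fat diet (40%) for 6 weeks, and were fasted, so that both groups were high-fat fed and no lean group was part of the comparison. On each array, RNA of a single mouse was labelled with Cy5 and an equimolar mix of all the samples, the pool, with Cy3, and the 24 arrays lay on 6 slides with 2 Norm and 2 Hypox arrays each. Values are log2 ratios of the mouse's RNA over the pool, so that 0 stands for the level of the pool, and Hypox minus Norm is the log2 fold change. In whole muscle, fewer cells of a type and less RNA per cell cannot be told apart.

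Averaged over its spots, an array's Cy5 signal lay between 58.3 and 933 (Norm) or 63.5 and 1014 (Hypox), and slide 1 was the dimmest, with 58.3 to 102. Precision is limited by the number of arrays. All 10 markers of skeletal muscle were well above background on every array. For the marker lists that follow, 2011 of all 14312 probes passed the same unadjusted threshold, 1071 higher and 940 lower in Hypox. Of the other cell types that whole muscle could hold, 3 of 9 endothelial markers tested were higher in Hypox and 3 of 6 markers of peripheral nerve and 2 of 4 of adipose tissue lower at an unadjusted p under 0.05. Higher in Hypox were also 2 of 7 slow-fiber markers, with 7 of 7 positive and a median log2 fold change of 0.38, and 1 of the 10 muscle markers. Over the 7 slow-fiber markers, 1 Norm array had a mean log2 ratio of -2.11, beside a Norm median of -0.29 and a lowest Hypox mean of -0.30. How far 7 of 7 and 0.38 rest on that array was not tested. The 2 slow-fiber markers that passed did so in 24 of 24 fits without 1 array. With slide as a block, where 2284 probes passed, 3 of the 10 muscle markers (*Myh4*, *Myh1* and *Pvalb*) were lower besides, 4 of nerve and 3 of adipose tissue were lower, and 1 slow-fiber marker passed after adjustment. Of the markers tested, 0 of 3 of leukocytes and 0 of 4 of red blood cells passed in either direction. Of 7 lung markers, 1 was bright enough to test and was higher in Hypox, and 2 were not well above background on any array. The mean log2 ratio of the 7 lung markers reached 1.22 on 1 Hypox array, beside a Hypox median of -0.082 and a highest Norm mean of -0.075. The tested marker reached 2.57 in Hypox (median -0.37) and passed in 24 of 24 fits without 1 array. For the 6 adipose markers, the mean reached 0.93 on 1 Norm array, beside a Norm median of -0.086. The mean log2 ratio of the 12 endothelial markers was -0.30 to -0.020 on Norm and -0.24 to -0.035 on Hypox arrays. The part of these cell types in the values of the HIF genes was not tested.

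Probes differ in what they read, so the first bases of the probes of the 3 genes on which the comparison turns are shown. *Hif1a* had 1 readable probe, and *Epas1* and *Egln2* had several that did not move together. For each, the first 30 of 60 bases are printed 5′ to 3′ as in the array design, named by the transcript base at which the probe starts.
Hif1a 3512: ttttttggcctatggaattgttaagcctgg
Epas1 5216: tcctgtccatgtaacaacttcatgaccatt
Epas1 3279: aaagtgttctgaaattttataagatttccc
Epas1 3188: ccaagcagtggcctttatctgacatgctca
Egln2 2046: tgacgagcatgggtatggaggttctgccag
Egln2 1704: tgtgtggtgtggagggcactaagtatcact
In build mm9 these probes lie at chr12:75047269-75047329 (*Hif1a*, NM_010431), chr17:87232615-87232674, chr17:87230678-87230737 and chr17:87230587-87230646 (*Epas1*, NM_010137), and chr7:27943678-27943737 and chr7:27944020-27944079 (*Egln2*, NM_053208). The G and C content of the full probes was 35% for *Hif1a*, between 35% and 40% for *Epas1*, and 48.3% and 55% for *Egln2*. Whether a probe lies in an exon's coding part was not analysed here.

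Only part of the oxygen-sensing machinery was bright enough to compare. Of the 18 probes, 11 of 8 genes had a mean Cy5 signal over 2 times the local background, the minimum for the test, which 14312 of all probes passed. *Epas1* and *Egln2* were each read by a probe at over 60 times its background (65.4 and 65.7 times) that was well above background on all 24 arrays. The other readable probes were closer to background. The mean signal was 7.97 times background for *Arnt* (base 4288), 4.16 for *Vhl*, 3.37 for *Egln3* (base 1631), 3.17 for *Hif1an*, 3.14 for *Hif1a* (base 3512) and 2.64 for *Egln1*. Each of these was well above background on 8 to 10 Norm and 8 to 12 Hypox arrays. The mean of *Hif1a* includes 21.0 times background on Hypox replicate 12, an array described below, beside at most 4.90 on any other array. These ratios tell how well a probe can be read and do not rank the genes, since probes bind with different strength.

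*Hif3a*, whose products can limit the other α subunits, could not be compared. The brightest of its 3 probes, at base 6374 on chromosome 7 (17616855 to 17616914), was at 1.62 times background and well above it on 4 Norm and 2 Hypox arrays. The other 2, at bases 534 and 2418, were not well above background on any array. The same held for the *Hif1a* probe at base 1558 and the *Arnt* probe at base 550. The *Arnt* probe at base 2641 was well above background on 5 Norm and 1 Hypox arrays, and the *Egln3* probe at base 1332 on 3 and 6. No fold change is given for these 7 probes. In a fit without the minimum, 0 of the 18 probes had an unadjusted p under 0.05 (limma), beside 4487 of all 55681 probes. Under other settings of that fit the dim *Arnt* probe at base 2641 did have one, with the processed signals (p = 0.0168, adjusted p = 0.658), without slide 1 (p = 0.00457, adjusted p = 0.300) and without Hypox replicate 4 (p = 0.0222, adjusted p = 0.489). Of its Hypox arrays, 6 lay below every Norm array and 1 above.

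**Figure D1:**
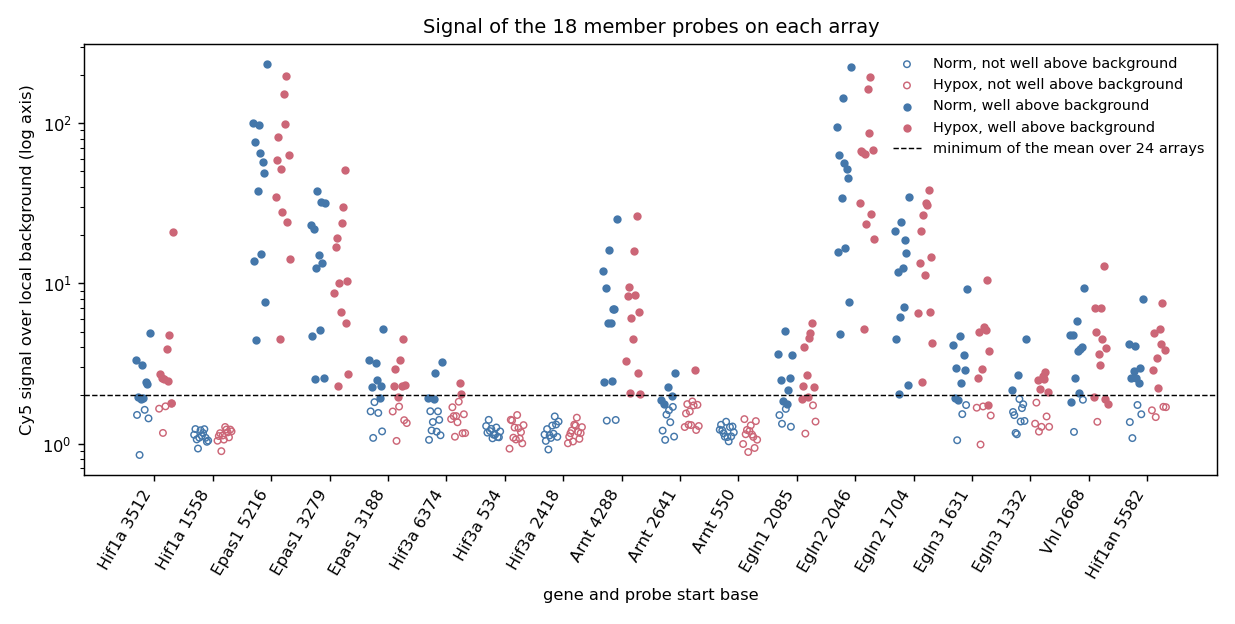
Cy5 signal over local background (log axis) of the 18 probes on each of 24 arrays, with filled symbols where the scanner software called the spot well above background and a dashed line at the minimum of 2 for the mean over arrays. The brightest *Epas1* and *Egln2* probes are filled on every array, while 4 probes have only open symbols.

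The question of the comparison was whether the transcripts of the HIF subunits and of their oxygen-dependent regulators differed after 6 h at 12% oxygen. Of the 11 probes tested, 0 passed an unadjusted p under 0.05 in limma's moderated test, and 0 after Benjamini-Hochberg adjustment over all 14312 probes. Among all probes tested, 14.1% passed the unadjusted threshold and 0.999% the adjusted one. Of the former, 53.3% were higher in Hypox, a share of 96.6% of 59 probes after median centring and 43.1% of 974 in the deposited values. In the members, 6 probes were higher and 5 lower in Hypox. Their median difference was 0.0088 on the log2 scale, beside 0.023 over all probes. The smallest p among them was 0.0608 (adjusted p = 0.380), and 16.0% of all probes had a p as small. The Norm and Hypox arrays overlapped for all 11 probes. The share of all probes with such overlap was not counted, so nothing particular to these genes can be read from it. Leaving out *Hif1a*, which is described next, the lowest bound of the 95% intervals was 0.664-fold (*Epas1*, base 3279). The highest was 1.35-fold (*Egln2*, base 1704). Every interval included no change, but their widths differed by probe, and that of *Arnt* (base 4288) ran from 0.901-fold to 1.12-fold.

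**Figure D2:**
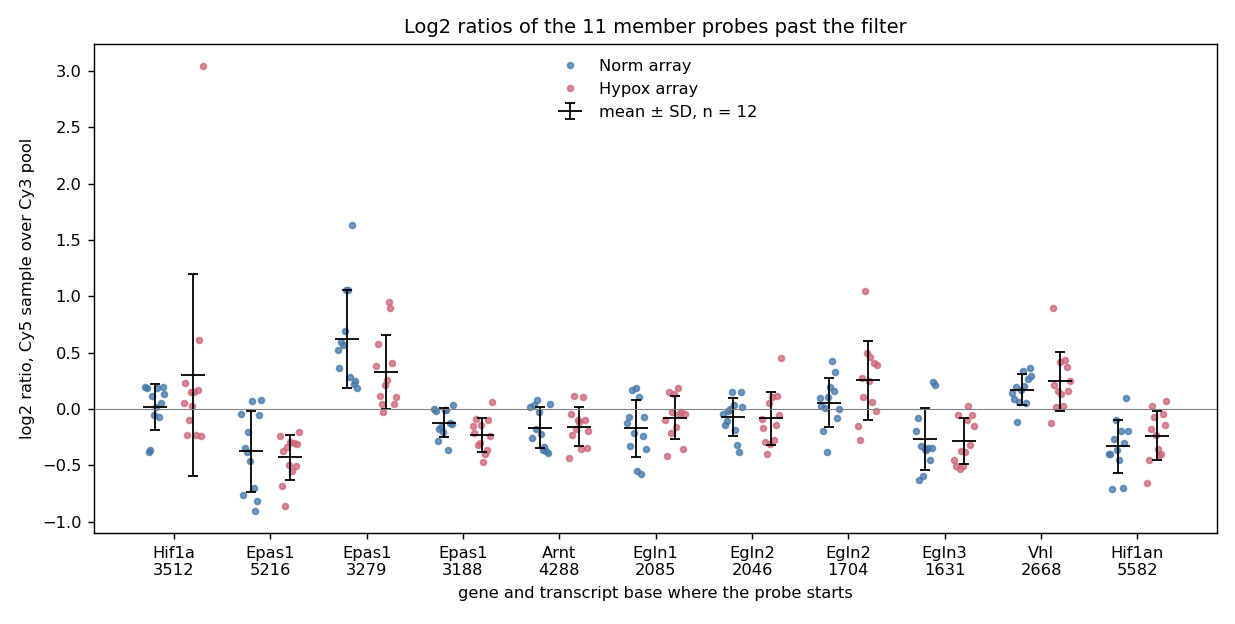
Log2 ratios of the 11 probes bright enough to test, 1 point per array, with the mean and SD of 12 Norm (blue) and 12 Hypox (red) arrays. The groups overlap for every probe, and 1 Hypox array stands at 3.04 for *Hif1a*.

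Among the α subunits, *Hif1a* encodes HIF1α, the subunit of the acute response to low oxygen. Its log2 ratio was -0.38 at the lowest, 0.086 in the median and 0.20 at the highest in Norm, and -0.24, 0.10 and 3.04 in Hypox. The highest Hypox value was that of replicate 12 on slide 1, and the other 23 arrays lay between -0.38 and 0.61. With all arrays the log2 fold change was 0.29 (standard error 0.24, p = 0.248, adjusted p = 0.632 from limma), from means of 0.017 ± 0.21 for Norm and 0.30 ± 0.90 for Hypox (SD, n = 12 each). Without that array the Hypox mean was 0.054 ± 0.25 (SD, n = 11) and the log2 fold change 0.037 (95% interval -0.16 to 0.23, p = 0.705, adjusted p = 0.888). The difference was 1.56 on slide 1 and between -0.16 and 0.19 on the other 5 slides.

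Both channels of this *Hif1a* spot stood apart on the array of Hypox replicate 12. The Cy3 signal, which comes from the same pool on every array, was 883 there and between 135 and 259 on the other 23 arrays. The Cy5 signal was 589, beside 25.5 to 40.2 on the other arrays of slide 1 and at most 144 on any other array. Of the 23 non-control spots within 2 rows and 2 columns, 4 also had a Cy3 signal over 3 times their median on the other arrays, while 0.585% of all non-control spots of this array did. The scanner software set no outlier flag on the spot, and in the deposited values this array was also the highest, at 7.60 against 5.22 to 6.62. The limits of this count were set after the values had been seen, and *Hif1a* is therefore given with and without this array. Without it the direction depended on the values used, at -0.097 for the processed signals (p = 0.714), -0.017 for Cy5 alone (p = 0.875), -0.054 for the deposited values (p = 0.719) and 0.17 for median centring (p = 0.343).

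**Figure D3:**
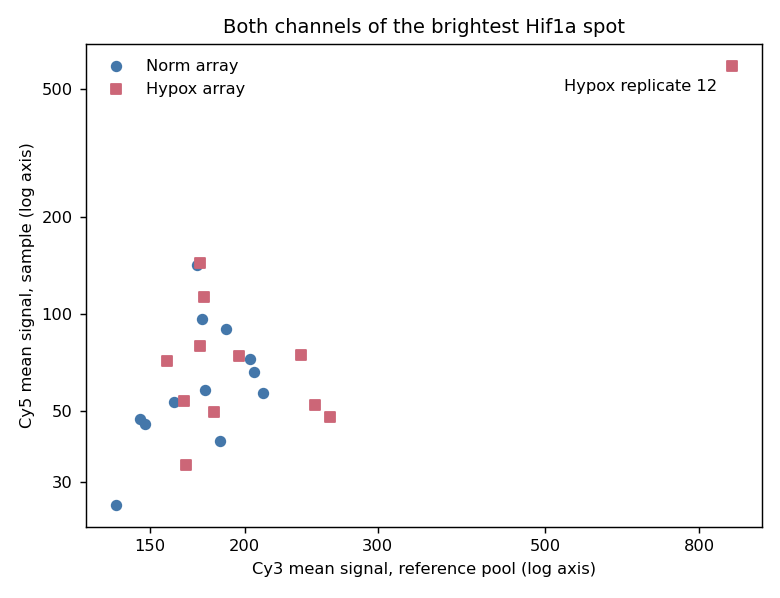
Mean Cy3 signal of the reference pool against mean Cy5 signal of the sample (both axes log) for the *Hif1a* spot on 12 Norm (circles) and 12 Hypox (squares) arrays. Hypox replicate 12 lies at 883 in Cy3 and 589 in Cy5, and the other 23 arrays lie at or below 259 and 144.

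*Epas1*, which encodes HIF2α and is prominent in endothelial cells, was read by 3 probes that gave different pictures. The brightest, at base 5216, spanned log2 ratios of -0.91 to 0.081 across the Norm arrays (median -0.36) and of -0.86 to -0.21 across the Hypox arrays (median -0.36). Norm arrays were found at both ends and Hypox arrays in between, with 4 Norm arrays above every Hypox array. The log2 fold change, -0.053 with a standard error of 0.11, did not pass (p = 0.644, adjusted p = 0.864) and lay between -0.10 (without Norm replicate 9) and -0.011 (without Norm replicate 12) with 1 array left out, with 2 slides higher and 4 lower in Hypox. The probe at base 3279 spanned 0.18 to 1.63 across the Norm arrays (median 0.55) and -0.029 to 0.95 across the Hypox arrays (median 0.24). Here 5 Hypox arrays lay below every Norm array and 3 Norm arrays above every Hypox array, the highest being Norm replicate 9.

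The fold change of the *Epas1* probe at base 3279 had the smallest p of the 11 probes. It was -0.29 (standard error 0.15, 95% interval -0.59 to 0.014, p = 0.0608, adjusted p = 0.380 from limma), from means of 0.62 ± 0.44 for Norm and 0.33 ± 0.33 for Hypox (SD, n = 12 each). The difference was negative on 6 of 6 slides, from -0.66 to -0.012, and was -0.023, -0.012 and -0.044 on 3 of them. It passed the unadjusted threshold with the Cy5 channel alone (-0.36, p = 0.00199, adjusted p = 0.131) and with array weights (-0.26, p = 0.0457). With the replicate block p was 0.0322, but the replicate numbers do not pair the mice. The fold change also passed in 7 of 24 fits without 1 array, where it lay between -0.34 (p = 0.0248, without Hypox replicate 8) and -0.20 (p = 0.135, without Norm replicate 9). It did not pass with slide as a block (p = 0.0524) or with the processed signals (-0.34, p = 0.0539). In the deposited values it was -0.17 (p = 0.531), and after median centring it was 0.027 (p = 0.949), or -0.21 relative to the median of all probes, beside -0.31 relative to it with loess. Its adjusted p ranged from 0.131 to 0.964 over all settings with the 24 arrays or without slide 1. The dimmest *Epas1* probe, at base 3188 and 2.27 times background, lay between -0.36 and 0.039 on Norm and between -0.47 and 0.060 on Hypox arrays, a log2 fold change of -0.11 with a standard error of 0.066 (p = 0.115), and passed with array weights (-0.15, p = 0.0212) and without Hypox replicate 12 (-0.13, p = 0.0471). The mean of the 3 probes gave -0.15 (p = 0.0309, adjusted p = 0.279). Over the 24 arrays with group means removed, the probes at bases 3279 and 3188 were correlated at r = -0.47, and that at base 5216 with them at -0.16 and 0.32. These correlations are a description, and the 3 probes share the same arrays and RNA.

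*Arnt*, the shared partner of the α subunits, spanned log2 ratios of -0.39 to 0.081 on Norm arrays (median -0.20) and -0.43 to 0.12 on Hypox arrays (median -0.15) at its probe at base 4288 (chr3:95301081-95301140, NM_001037737). The ranges of the groups nearly coincided. The log2 fold change was 0.0088 (standard error 0.077, 95% interval -0.15 to 0.17, p = 0.910), with 3 slides in each direction. The spread of this probe within groups was below that of most probes, since 15.7% of all probes tested had a smaller SD.

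Of the prolyl hydroxylases, *Egln1* encodes PHD2, the main oxygen sensor for HIF1α. Its probe (chromosome 8, NM_053207, start base 2085) had a lowest log2 ratio of -0.57, a median of -0.17 and a highest of 0.19 on Norm arrays, and -0.42, -0.046 and 0.19 on Hypox arrays. The highest arrays of the groups were level, and 2 Norm arrays lay below every Hypox array. The estimated log2 fold change was 0.095 (standard error 0.092, 95% interval -0.095 to 0.28, p = 0.314, adjusted p = 0.682), with 4 slides higher and 2 lower, and slide 2 had the largest difference, 0.53. Without Norm replicate 9 the fold change was 0.058. *Egln3*, which encodes PHD3, was read at base 1631 (chr12:55280953-55281012, NM_028133) at -0.63 to 0.24 on Norm arrays (median -0.35) and -0.53 to 0.029 on Hypox arrays (median -0.34). The difference was -0.013 on the log2 scale (standard error 0.098, 95% interval -0.21 to 0.19, p = 0.898), and the medians of the groups were alike. The dim *Egln3* probe at base 1332 followed the bright one across the arrays (r = 0.68, group means removed), the closest of the 12 pairs of probes of 1 gene.

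*Egln2* encodes PHD1, and its 2 probes differed. The bright probe, at base 2046, had log2 ratios between -0.38 and 0.15 on Norm arrays (median -0.029) and between -0.40 and 0.45 on Hypox arrays (median -0.12). The highest value was that of a Hypox array and lay above every Norm array, although the Hypox median was the lower one. The log2 fold change was -0.014 (standard error 0.086, p = 0.869). The probe at base 1704 lay between -0.38 and 0.43 on Norm arrays (median 0.061) and between -0.28 and 1.04 on Hypox arrays (median 0.26), with 3 Hypox arrays above every Norm array. There the log2 fold change was 0.20 (standard error 0.11, 95% interval -0.039 to 0.43, p = 0.0989, adjusted p = 0.455), and 5 of 6 slides were higher in Hypox, with slide differences between -0.22 and 0.77. It passed the unadjusted threshold with the processed signals (0.23, p = 0.0146, adjusted p = 0.216) and without Hypox replicate 2 (0.24, p = 0.0342), and not under the other settings, being 0.12 without Hypox replicate 5, 0.37 in the deposited values (p = 0.120) and 0.47 after median centring (p = 0.242). Across arrays the 2 probes were correlated at r = 0.022 with group means removed.

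*Vhl*, the adaptor that binds hydroxylated α subunits (chr6:113581566-113581625, NM_009507), had log2 ratios of -0.11 at the lowest, 0.18 in the median and 0.37 at the highest on Norm arrays, against -0.12, 0.19 and 0.89 on Hypox arrays. In Hypox, 4 arrays lay above every Norm array and 1 below, so that the Hypox arrays were spread more widely around a like median. Hypox minus Norm was 0.074 (standard error 0.087, 95% interval -0.10 to 0.25, p = 0.401), and 0.016 without Hypox replicate 2, the highest array. *Hif1an*, which encodes FIH (chr19:44650157-44650216, NM_176958), spanned -0.71 to 0.10 on Norm arrays (median -0.33) and -0.65 to 0.070 on Hypox arrays (median -0.21), so that the groups overlapped over most of their range. The log2 fold change was 0.096 (standard error 0.093, 95% interval -0.094 to 0.29, p = 0.310), 0.062 without Norm replicate 3, 0.24 with the processed signals (p = 0.238) and 0.24 after median centring (p = 0.240). Its log2 ratio was lower on brighter arrays, with r = -0.52 against the log2 mean Cy5 signal over the 24 arrays with group means removed, the strongest such relation of the 11 probes in size, and its mean was -0.018 on slide 1 and -0.34 on the others. The part of brightness in this value was not tested.

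Over the other settings with all arrays or without slide 1, the log2 fold changes of *Hif1a* ran from 0.017 to 0.37 and those of *Arnt* (base 4288) from -0.039 to 0.25. *Epas1* ran from -0.15 to 0.41 at base 5216, from -0.36 to 0.027 at base 3279 and from -0.19 to 0.043 at base 3188. For the hydroxylases the ranges were 0.015 to 0.22 (*Egln1*), -0.044 to 0.42 and 0.16 to 0.47 (*Egln2*, bases 2046 and 1704), -0.068 to 0.18 (*Egln3*, base 1631) and 0.067 to 0.24 (*Hif1an*), and for *Vhl* 0.012 to 0.25. Except for *Hif1a*, the upper ends are those of median centring, which moved the median of all probes to 0.24, and the lower end of *Epas1* at base 5216 is the mean of its 3 probes.

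**Figure D4:**
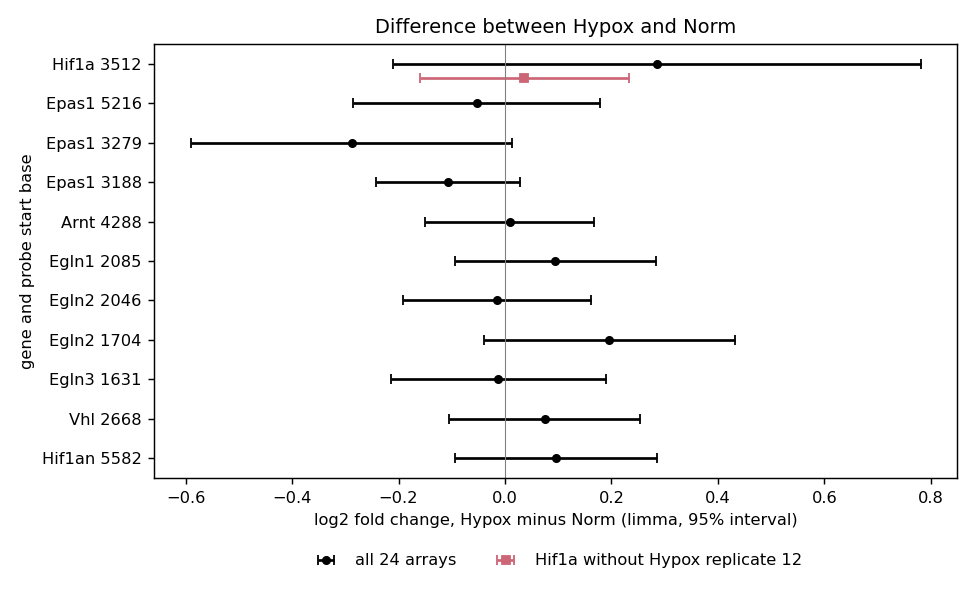
Log2 fold change, Hypox minus Norm, of the 11 probes with limma's 95% intervals over 24 arrays, and in red for *Hif1a* without Hypox replicate 12. Every interval includes 0, and that of *Hif1a* narrows from -0.21 to 0.78 to -0.16 to 0.23 without that array.

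How the 8 readable genes varied together between mice was asked over 28 pairs of their brightest probes, with group means removed (24 arrays, 2-sided permutation tests, adjusted over the 28 pairs). Pearson's r ranged from -0.28 to 0.64 (median 0.16) and was positive for 23 pairs, and 2 pairs passed after adjustment. *Epas1* and *Egln2* were correlated at r = 0.63 (permutation p = 0.000770, adjusted 0.0211) and rho = 0.64 (permutation p = 0.000940, adjusted 0.0263), and at r = 0.53 without the 2 arrays farthest from the median of *Epas1*. Without Hypox replicate 12, r was 0.66 (adjusted permutation p = 0.0204) and rho 0.62 (adjusted permutation p = 0.0568), so that rho no longer passed. With slide means removed as well, r was 0.61 (adjusted permutation p = 0.0199) and rho 0.47 (adjusted permutation p = 0.235). With other values of the same arrays, r of this pair was 0.38 for the processed signals, 0.70 for the Cy5 channel alone, 0.96 for the deposited values and 0.99 for median centring, so that its size differed with the values used. Both probes were among the bright ones, and the part of signal strength in the relation was not tested. The relation is that of 1 probe per gene, at bases 5216 (*Epas1*) and 2046 (*Egln2*). With group means removed, this *Egln2* probe was correlated with the other at r = 0.022. The *Epas1* probe was correlated with those at bases 3279 and 3188 at -0.16 and 0.32. Pairs with these other probes were not tested. *Hif1a* and *Egln2* were at r = 0.64 (permutation p = 0.00151, adjusted 0.0211) and rho = 0.43 (permutation p = 0.0370, adjusted 0.345), and r fell to 0.36 (adjusted permutation p = 0.623) without Hypox replicate 12. That relation therefore rests on this array.

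**Figure D5:**
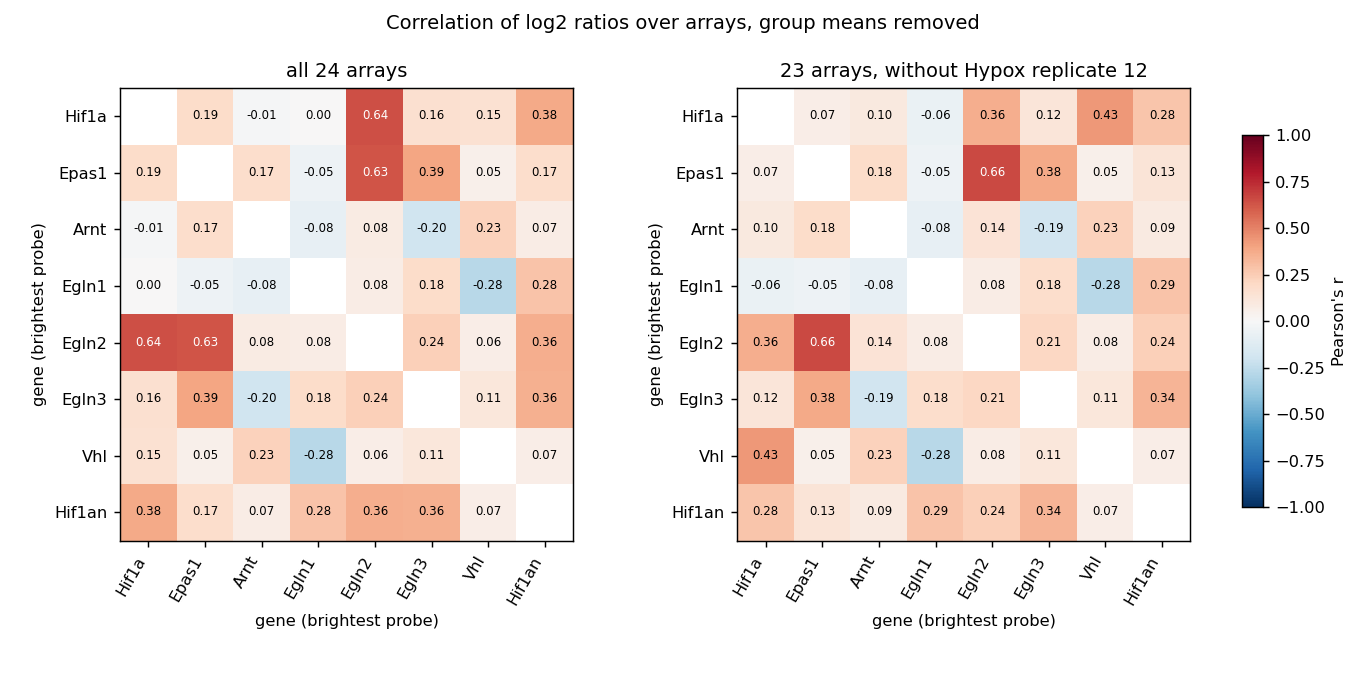
Pearson's r between the log2 ratios of the brightest probe of 8 genes with group means removed, over 24 arrays (left) and over 23 arrays without Hypox replicate 12 (right). *Epas1* with *Egln2* is at 0.63 and 0.66, while *Hif1a* with *Egln2* is at 0.64 and 0.36.

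The genes whose pattern over the arrays was most like that of each member are given as a description, by Pearson's r over 24 arrays with group and slide means removed, among 11519 gene names. They were *Ppid*, *Alkbh7* and *Ilkap* for *Epas1* (0.81 to 0.83), *Tbx15*, *Herc1* and *Wwp2* for *Arnt* (0.81 to 0.84), and *Stx17*, *3110043O21Rik* and *Itpr1* for *Egln2* (0.83 to 0.86). For *Egln3* they were *Mrpl34*, *Sod3* and *Ptgis* (0.76 to 0.77), and for *Vhl* *Zmym6*, *Bnip3l* and *Dctpp1* (0.83 to 0.91). *Egln1* was followed by an unnamed probe, *Pdcd6ip* and *Bcor* (0.78 to 0.82), and *Hif1an* by an unnamed transcript, *Ube2d1* and *Ehd2* (0.82 to 0.83). Without Hypox replicate 12, *Kctd2* led for *Epas1* (0.88), an unnamed transcript of chromosome 15 for *Arnt* (0.91), and *Purb* and *Dnm2* for *Egln2* (both 0.85). None of the 3 names of *Hif1a* was then among its first 3. With it, *Arhgap15*, an intergenic transcript of chromosome 4 and *Ephb1* stood at 0.94 to 0.96, and without it *Tfb1m*, *Abhd14b* and *Zc3h10* at 0.72 to 0.77. All these r values are the highest of many names, and the r that such picking gives by itself was not computed.

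Other genes of the pathway were taken from 4 lists of 75 genes in all, of which 59 could be tested by their brightest probe. At the unadjusted threshold 2 were higher and 3 lower in Hypox, and 0 passed after adjustment (limma). With every gene name read by its brightest probe, 1624 of 11679 passed the unadjusted threshold and 112 the adjusted one, so that nothing particular to the pathway can be read from its count. Of 8 partners and coactivators tested 1 was lower, of 9 genes of the VHL ubiquitin ligase 0 passed, of 17 genes that control the stability of HIF or its hydroxylases 2 were lower, and of 25 commonly cited HIF targets 2 were higher. The median log2 fold changes of these lists were -0.093, 0.054, 0.032 and 0.046. *Crebbp*, which encodes the coactivator CBP, was lower in Hypox, at a mean log2 ratio of -0.23 ± 0.21 against 0.046 ± 0.22 (SD, n = 12 each). The Norm arrays lay between -0.24 and 0.51 and the Hypox arrays between -0.64 and 0.016. Hypox was lower on 6 of 6 slides, by -0.28 (standard error 0.089, p = 0.00429, adjusted p = 0.144), and passed in 24 of 24 fits without 1 array. It also passed with the processed signals (p = 0.0137), Cy5 alone (p = 0.000705) and slide as a block (p = 0.00501), and not after median centring (p = 0.792) or with the deposited values (p = 0.769). *Siah2*, a ubiquitin ligase for prolyl hydroxylases, had a log2 fold change of -0.20 (p = 0.0195, adjusted p = 0.249), and *Usp33*, a deubiquitinase, one of -0.22 (p = 0.0315, adjusted p = 0.301), each lower on 5 of 6 slides. *Siah2* passed in 24 and *Usp33* in 19 of 24 fits without 1 array, and both with slide as a block (p = 0.0168 and 0.0249). With the deposited values *Siah2* passed (p = 0.0345) and *Usp33* did not (p = 0.177), and neither gene passed with the processed signals (p = 0.254 and 0.359), after median centring (0.938 and 0.972) or with Cy5 alone (0.0894 and 0.157). With slide as a block 9 of the 59 passed, 5 higher and 4 lower, beside 2284 of all 14312 probes in the same fit. The additional genes were *Ube2d1* (p = 0.0342) and *Ube2d3* (p = 0.0456) of the VHL ligase list and *Sirt3* (p = 0.0434) of the stability list, all higher, and the target *Aldoa*, lower (p = 0.0171).

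Of the HIF targets, *Ddit4*, which encodes an inhibitor of mTORC1 signaling, had log2 ratios of -0.87 to 0.00035 on Norm arrays (median -0.60) and -0.83 to 0.83 on Hypox arrays (median -0.15). It was higher in Hypox by 0.53 (standard error 0.15, p = 0.00154, adjusted p = 0.0875). *Ankrd37*, a small ankyrin repeat gene, had -0.69 to 0.048 on Norm arrays (median -0.31) and -0.26 to 0.62 on Hypox arrays (median -0.12), a difference of 0.25 (SE 0.092, p = 0.0105, adjusted p = 0.202). Both were higher on 5 of 6 slides and passed the unadjusted threshold with each array left out, but *Ddit4* did not after median centring (p = 0.0987), nor *Ankrd37* with the deposited values (p = 0.179). Neither *Vegfa*, the endothelial growth factor (-0.087, p = 0.336), nor *Slc2a1*, a glucose transporter (0.048, p = 0.622), nor *Pdk1*, a kinase that limits pyruvate oxidation (0.13, p = 0.102), passed. These 3 were chosen as widely used HIF readouts after their values had been seen.

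As hypoxia response elements lie in the promoters of some of these genes, the core motif was looked up in the RefSeq promoter windows, from 250 bases before to 50 bases after the gene start (build GRCm38.p6). Windows were found for 8 of the 9 members, *Egln2* with 2, and *Epas1* had none in the table. The letters ACGTG or GCGTG, on either strand and counting overlapping matches on both strands separately, occurred in 7 of these 9 windows and in 43.8% of all 32851 windows. The windows of *Vhl* and *Hif1an* held no match. *Egln1* and *Egln3*, the textbook HIF-responsive hydroxylases, are shown with the match in capitals.
Egln1 chr8:124949308-124949332, minus strand: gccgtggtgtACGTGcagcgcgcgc
Egln1 chr8:124949366-124949390, minus strand: ccggcccgccGCGTGcgcgcggccc
Egln3 chr12:54204089-54204113, minus strand: tgcatctcagACGTGagatccaggt
Relative to the gene start, the first base of the match is at -68 and -126 in *Egln1* and at -229 in *Egln3*. A match of these letters is a description of the sequence and not a site, and the transcripts of both genes, given above, did not pass the test.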

How the data were processed

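The authors deposited Feature Extraction output (Agilent, version 10.7.3.1 per the labels) for 24 two-colour arrays, which holds the intensity of every spot in each channel without between-array normalization. They also deposited log2 values from GeneMaths XT for 21335 spots, whose columns all have a median of 6.58 and whose scaling and use of Cy3 are unknown. Dyes were taken from the sample descriptions, because several Hypox entries give a different dye name.

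Control spots were dropped, as were 7260 readings that the scanner software had marked as outliers, none of them of a member, and 0 spots were saturated. After normexp background correction (offset 50), log2(Cy5/Cy3) was loess-normalized per array and repeated spots were averaged. A probe entered the test if its Cy5 signal averaged more than 2 times local background and no more than 4 arrays had no value. limma's moderated test compared Hypox and Norm over 14312 probes with Benjamini-Hochberg adjustment. Each replicate was a separate mouse. Named are all members and their probes, and the 3 gene names most like each member. Pathway genes are named if past an unadjusted 0.05 in the main fit or with slide as a block (at most 5 per list). Also named are 3 HIF readouts that did not pass and 3 muscle markers lower with slide as a block. Pairs were tested with 100000 permutations.

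The members and lists were chosen with earlier results of these data known. Alternatives were processed signals, median centring, Cy5 alone, deposited values, other filters, slide or replicate blocks, the methods' t-test, array weights, the mean of a gene's probes, and leaving out arrays or a slide, and others chosen after seeing the data (given with the limits). Scripts were tested on simulated data. limma 3.58.1 ran under R 4.3.3, and the other steps used scipy 1.17.1 and numpy 2.4.6 in Python 3.11.15, with figures from matplotlib 3.10.9.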

Additional observations from a re-analysis of the deposited data

How the results depend on the processing

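Of 264 values of the 11 member probes with 1 array left out, 235 kept their sign and their side of the unadjusted threshold, 9 passed it and 20 changed sign, and of 146 values under other settings these numbers were 124, 6 and 16. Without 1 array, *Arnt* (base 4288) lay between -0.016 and 0.034, *Egln2* (base 2046) between -0.063 and 0.014 and *Egln3* (base 1631) between -0.045 and 0.033. Between 0 and 2 of the 11 member probes passed unadjusted, beside 1720 to 2272 of all 14312 probes, and 51 to 238 of all probes passed after adjustment. Of the members, 1 of the 11 tested passed with the processed signals, 1 with Cy5 alone, and 2 with array weights, and 1 of the 8 genes with the mean of the probes of a gene, all unadjusted. The dim *Arnt* probe at base 2641, outside these 11, passed with the processed signals, without the dimmest slide and without Hypox replicate 4. Of all 14312 probes, 1995 passed unadjusted with processed signals, 1336 with Cy5 alone and 2968 with array weights, and 1732 of 11679 gene names with the mean of their probes. Of all probes, 251 passed adjustment with processed signals, 76 with Cy5 alone, 45 without the filter (4487 unadjusted), 89 by the methods' t-test and 697 with array weights, beside 143. Median centring left 59 unadjusted and 0 adjusted (limma) and moved the median of all probes from 0.023 to 0.24. Before that shift is taken off, *Epas1* was then at 0.41, 0.027 and 0.043 (bases 5216, 3279 and 3188), *Egln2* at 0.42 and *Egln3* at 0.18, and relative to it *Epas1* was at 0.17, -0.21 and -0.20, *Egln2* at 0.18 and *Egln3* at -0.058, so that the reversal of *Epas1* (base 5216) and *Egln2* remained. On that relative scale *Hif1a* turned from 0.26 to -0.030, *Egln1* from 0.072 to -0.021, *Hif1an* from 0.073 to -0.0017 and *Arnt* from -0.014 to 0.0071. In the deposited values 974 probes passed and 1 after adjustment (1042 and 0 by the methods' t-test), and with either test *Epas1* (base 5216) and *Egln2* (base 2046) were at 0.24 and *Egln3* (base 1631) at 0.0034. *Arnt* was at -0.0094 with array weights, and without the dimmest slide *Arnt* was at -0.039, *Epas1* (base 5216) at 0.00010 and *Egln3* at 0.044. The mean of the *Egln2* probes was 0.091. With slide as a block 9 of 59 other pathway genes passed in place of 5 (2284 of all probes in place of 2011), and without Hypox replicate 12 only 1 of the 28 pairs passed by r and 0 by rho (permutation tests). The cause of these changes was not tested. With the replicate block 2083 probes and 1 member probe passed (the *Epas1* probe at base 3279), but the numbers do not pair the mice: of 12 pairs 1 lay on 1 slide, the deviations correlated at -0.22 to 0.53, and 1 Norm array correlated best with its own number. The t-test on deposited values, the pairs and likeness without Hypox replicate 12 and the *Epas1* and *Egln2* correlation with other values were added after seeing the data. The search for a hydroxylation motif in the proteins was not run. Dim signal limits the 7 probes under the filter.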
